A study of Homo sapiens with 3 samples.

Results

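The 10 genes described here are the interleukin-1 (IL-1) ligands IL1A and IL1B, their relatives IL33 and IL18, the receptor chains IL1R1 and IL1RAP, the receptor antagonist IL1RN, the signalling genes MYD88 and IRAK1, and the processing enzyme CASP1. They were chosen by name, and all 10 were found among the 43913 gene symbols of the 3 count files. IL18 was listed in the coculture file only. The data come from Drop-seq, a droplet method that counts the 3′ ends of messenger RNA in single cells by unique molecular identifiers (UMIs). MM.1S is a human multiple myeloma cell line and HS-5 is an immortalised human bone marrow stromal cell line. There was 1 library of MM.1S cells in monoculture, 1 of HS-5 cells in monoculture, and 1 of both lines after 4 h of coculture. The labels name no treatment and no genetic change in any of them. A pair of established lines stands here for the myeloma and the stroma, and other marrow cells are not part of the design.

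IL-1α and IL-1β, the products of IL1A and IL1B, bind the same receptor, which is built from IL1R1 and the accessory chain IL1RAP. The receptor recruits the adaptor MYD88 and kinases of the IRAK family, and the signal reaches NF-κB and MAP kinases. IL1RN encodes a soluble protein that occupies IL1R1 without recruiting the accessory chain. CASP1 is the protease that cuts the IL-1β and IL-18 precursors, while IL-1α and IL-33 are active without it. In stromal cells of the bone marrow, IL-1 is known to induce chemokines, IL-6 and colony-stimulating factors.

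After cells with fewer than 200 detected genes were left out, 3947 MM.1S monoculture cells, 3732 HS-5 monoculture cells and 3856 coculture cells remained. Coculture cells were assigned to a line by 82 MM.1S and 228 HS-5 genes that were at least 50-fold different between the monocultures, none of which belongs to the IL-1 genes or to the pathway lists used below. This gave 1642 MM.1S cells and 2105 HS-5 cells, while 107 cells carried RNA of both lines and 2 had too few line-specific UMIs. The median was 2201 UMIs per MM.1S cell in monoculture and 669 in coculture, against 971.5 and 957 for HS-5. Of 12 MM.1S markers, 8 reached 10 CPM, counts per 1000000 UMIs, in both cultures of that line, while CD79A, IGLL5, SLAMF7 and FCRL5 did not. Of 12 HS-5 markers, 10 reached that level in both cultures of HS-5, while COL3A1 and TAGLN did not. Some markers were also found in the other line. Of the HS-5 markers, 2 reached 10 CPM in MM.1S monoculture and 3 in MM.1S coculture, with FN1 highest at 810 and 2229 CPM. Of the MM.1S markers, 2 and 3 did so in HS-5 monoculture and coculture, with SDC1 highest at 135 and 126 CPM. Between 1 and 7 cell barcodes were shared by any pair of libraries after this filter.

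Each condition is 1 library, so the comparisons have no replicate check, and no test was made. Intervals are exact 95% intervals. They cover counting error only, not the spread between cells or cultures, and UMI sums hold all cells of a line, so fewer expressing cells and less RNA per cell cannot be told apart in them. Ratios at or beyond 1.5-fold are counted as higher or lower where the groups compared averaged 10 CPM or more. Of the 10 genes, 3 reached 10 CPM in MM.1S monoculture cells, 4 in MM.1S coculture cells, and 5 in HS-5 cells of either culture. The gene added in MM.1S coculture was IL1B, from 15 UMIs, for which free HS-5 RNA is described below. The share of all genes past this level in each group is not given.

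Both IL-1 ligands were HS-5 transcripts. IL1B was found at 1545 CPM (1514 to 1577) in HS-5 monoculture cells and at 1282 CPM (1238 to 1327) in HS-5 coculture cells. In MM.1S monoculture cells it was at 0.671 CPM (0.270 to 1.38), from 7 UMIs. IL1A was at 172 CPM (162 to 182) in HS-5 monoculture cells, at 117 CPM (104 to 131) in HS-5 coculture cells and at 0.383 CPM (0.104 to 0.982) in MM.1S monoculture cells. The ratio of HS-5 over MM.1S monocultures was 2303 (1117 to 5730) for IL1B and 448 (174 to 1647) for IL1A. These folds rest on 7 and 4 UMIs in MM.1S, and their size depends on the pseudocount where one is used, with log2 values from 7.19 to 10.97 for IL1B and from 4.13 to 8.47 for IL1A. In that comparison 6 of the 10 genes averaged 10 CPM or more, and 4 of these were at least 1.5-fold higher in HS-5 (IL1A, IL1B, IL1RAP and IRAK1), against 50.1% of 8734 genes. None was 1.5-fold lower, against 22.1% of those genes. A share of 9.26% of those genes was at least 10-fold higher in HS-5, which the ligands passed.

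After 4 h with MM.1S cells, HS-5 cells held less of both ligand transcripts. The ratio of coculture over monoculture was 0.681 (0.596 to 0.776) for IL1A and 0.830 (0.797 to 0.864) for IL1B, so neither passed 1.5-fold. IL1B in MM.1S coculture cells was at 11.3 CPM (6.32 to 18.6), from 15 UMIs in 15 cells. RNA of HS-5 free in the suspension, estimated at 1.74% of the UMIs of these cells from the HS-5-specific genes, would give 22.3 CPM of IL1B. The same estimate was also above the observed MM.1S coculture level for other HS-5 transcripts, with 20.9 against 7.53 CPM for IL6, so the amount of free IL1B RNA is not known, and its part in the 11.3 CPM was not tested.

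IL1A and IL1B lie side by side on chromosome 2, on the minus strand, at chr2:112773915-112784590 and chr2:112829751-112836903 (GRCh38, GENCODE release 29). The 250 bases before their starts are shown because the pair was detected in the same HS-5 cells more often than the separate shares give, as described below. The windows are from RefSeq (GRCh38.p14), chr2:112784494-112784743 and chr2:112836780-112837029, both minus strand and 5′ to 3′. The RefSeq starts lie inside the GENCODE spans given above, so the part of each window nearest the start overlaps the gene as GENCODE places it. Capitals mark TATAAA and TGANTCA, the latter being the letters that AP-1 factors bind, searched on both strands.
IL1A: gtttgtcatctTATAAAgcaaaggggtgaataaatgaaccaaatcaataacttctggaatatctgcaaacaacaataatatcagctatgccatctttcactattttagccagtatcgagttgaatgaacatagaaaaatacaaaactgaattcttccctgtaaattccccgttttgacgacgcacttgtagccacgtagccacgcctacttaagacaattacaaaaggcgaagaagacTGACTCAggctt
IL1B: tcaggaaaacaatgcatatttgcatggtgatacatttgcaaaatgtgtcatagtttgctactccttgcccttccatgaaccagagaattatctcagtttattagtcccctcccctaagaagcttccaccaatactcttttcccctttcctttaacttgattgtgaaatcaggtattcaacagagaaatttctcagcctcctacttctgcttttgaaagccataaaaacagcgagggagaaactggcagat
RefSeq also holds a start of IL1A further downstream, whose window (chr2:112784401-112784650) held no TATAAA and had TGANTCA from 105 to 99 and from 55 to 49 bases before it. In the IL1A window printed, TATAAA lay from 239 to 234 bases before the start and TGACTCA from 12 to 6 bases before it. The IL1B window held neither, nor the NF-κB consensus or TTNNGCAAT, the letters searched for C/EBP factors. Of 35116 promoter windows of this length, 10.7% held TATAAA, 6.57% held TGANTCA, 9.96% held the NF-κB consensus and 2.04% held TTNNGCAAT. These are matches of letters, and nothing was measured about binding.

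Not every HS-5 cell held a ligand UMI. To compare cells at 1 depth, each was thinned to 1000 UMIs, which left 1802 of 3732 HS-5 monoculture cells, 1000 of 2105 HS-5 coculture cells, 3870 MM.1S monoculture cells and 378 MM.1S coculture cells. An IL1B UMI was found in 67.5% (65.3% to 69.6%) of HS-5 monoculture cells and in 63.0% (59.9% to 66.0%) of HS-5 coculture cells. The share was 0.0775% in MM.1S monoculture cells, from 3 cells. Before thinning, these shares were 67.1%, 58.4% and 0.177%.

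IL1B was spread unevenly among HS-5 cells. If every monoculture cell had held the mean, 80.9% of them would have had an IL1B UMI, and in coculture 73.3%, both above the shares found. The variance of the UMI count was 2.01 times its mean in monoculture and 1.79 times in coculture. In monoculture, 136 cells (7.55%) had 5 or more IL1B UMIs and the highest cell had 16, while 586 cells had none. The 10% of cells with the most IL1B held 34.1% of its UMIs in monoculture and 35.5% in coculture. IL1A was found in 15.5% (13.8% to 17.2%) of thinned HS-5 monoculture cells and in 8.90% (7.21% to 10.8%) of thinned HS-5 coculture cells, with at most 4 UMIs per cell.

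**Figure D1:**
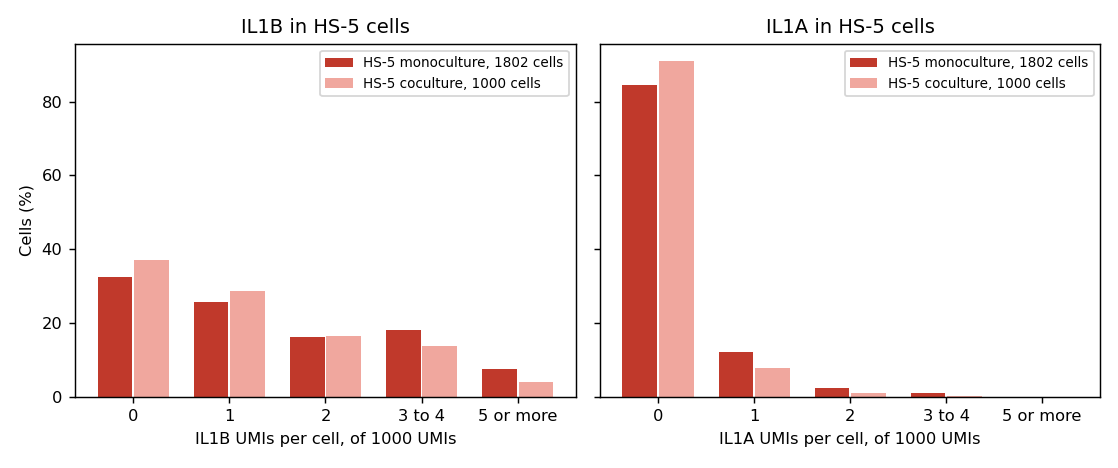
Share of HS-5 cells in percent (y axis) by number of IL1B UMIs (left) or IL1A UMIs (right) per cell after thinning to 1000 UMIs, with dark bars for 1802 monoculture cells and light bars for 1000 coculture cells. IL1B ranges from 0 to 5 or more UMIs per cell with the coculture shifted to lower counts, and no IL1A UMI was found in 84.5% and 91.1% of cells.

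The other ligands of the set were at the edge of detection. IL33, an alarmin stored in the nucleus, gave 19 UMIs in MM.1S monoculture cells, 1 in MM.1S coculture cells, 8 in HS-5 monoculture cells and 2 in HS-5 coculture cells. Of the 19, 13 came from 1 cell, so its level of 1.82 CPM in MM.1S monoculture rests on that cell. IL18, which needs CASP1 for activation as IL-1β does, had 1 UMI in MM.1S coculture cells and none elsewhere, which allows up to 0.288 CPM in MM.1S monoculture and 0.488 CPM in HS-5 monoculture by a limit of 3 counts. Of the 6 further family ligands (IL36A, IL36B, IL36G, IL36RN, IL37 and IL1F10), none reached a mean of 10 CPM in any comparison. IL37 had the most UMIs in 1 group, 11 in HS-5 monoculture cells (1.79 CPM), and 8 in HS-5 coculture cells (3.23 CPM).

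The signalling receptor IL1R1 (chr2:102064544-102179874, plus strand) was low in HS-5 and lower in MM.1S. It was at 8.95 CPM (6.75 to 11.7) in HS-5 monoculture cells, from 55 UMIs, and at 5.65 CPM (3.09 to 9.47) in HS-5 coculture cells, from 14 UMIs. MM.1S cells gave 0.863 CPM (0.394 to 1.64) in monoculture and 1.51 CPM (0.182 to 5.44) in coculture, from 9 and 2 UMIs. The HS-5 over MM.1S ratio in monoculture was 10.4 (5.09 to 23.9), which lies beyond counting error. The ratio of coculture over monoculture in HS-5 was 0.631 (0.324 to 1.15), or -0.58 on the log2 scale with a pseudocount of 1 CPM, and a difference was not detectable at this depth. An antisense gene, IL1R1-AS1, overlaps IL1R1, and whether strand was used in counting is not given in the sources used here.

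The accessory chain IL1RAP (chr3:190514051-190659750, plus strand), which IL-33 and IL-36 receptors also use, was found in both lines. It was at 5.56 CPM (4.22 to 7.19) in MM.1S monoculture, 4.52 CPM (1.66 to 9.83) in MM.1S coculture, 19.5 CPM (16.2 to 23.4) in HS-5 monoculture and 20.6 CPM (15.3 to 27.0) in HS-5 coculture cells. HS-5 exceeded MM.1S 3.51-fold (2.55 to 4.89) in monoculture. The coculture over monoculture ratio was 1.05 (0.743 to 1.47) in HS-5 and 0.813 (0.287 to 1.88) in MM.1S, and both intervals include 1.

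IL1RN (chr2:113107214-113134016, plus strand), the antagonist, was the member with the largest coculture over monoculture ratio in HS-5 cells, and it was also rare. It gave 17 UMIs in HS-5 monoculture cells, 2.77 CPM (1.61 to 4.43), and 21 UMIs in HS-5 coculture cells, 8.47 CPM (5.24 to 12.9). The ratio was 3.06 (1.54 to 6.18), and its interval excludes 1. On the log2 scale with a pseudocount of 1 CPM, which draws low values toward 0, it was 1.33. The coculture UMIs came from 19 cells with at most 2 each. MM.1S cells held 9 UMIs in monoculture and 2 in coculture, or 0.863 and 1.51 CPM. The mean of 5.62 CPM in HS-5 lies under 10 CPM, so IL1RN is not among the genes counted as higher. After thinning, IL1RN was found in 0.277% (0.0902% to 0.646%) of HS-5 monoculture cells and 1.10% (0.550% to 1.96%) of HS-5 coculture cells, against 0.0517% in MM.1S monoculture cells. These intervals overlap.

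Of the other receptors and decoys, IL1R2, the decoy receptor that binds IL-1 without signalling, had 3 UMIs in HS-5 monoculture cells, 2 in MM.1S monoculture cells and none in coculture cells of either line. IL18R1 gave 21 UMIs in HS-5 coculture cells against 5 in monoculture, but 14 of the 21 came from 1 cell. SIGIRR, a receptor that dampens IL-1 signalling, was the only gene of the 8 on this list to average 10 CPM or more within a line. It was at 16.1 CPM in MM.1S monoculture and 9.79 CPM in MM.1S coculture, with a ratio of 0.608 (0.317 to 1.07), and at 20.7 and 27.8 CPM in HS-5, with a ratio of 1.35 (0.989 to 1.82).

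Receptor and antagonist transcripts were each found in few cells, so few cells could hold a pair of them. Of the 52 HS-5 monoculture cells with an IL1R1 UMI at full depth, 2 also had an IL1RAP UMI, or 3.85% (0.469% to 13.2%), against 2.93% of the cells without IL1R1. In coculture it was 1 of 12 cells. Cells with an IL1RN UMI numbered 17 in monoculture and 19 in coculture. In monoculture 1 of them, or 5.88% (0.149% to 28.7%), also had IL1R1, against 1.37% of the cells without IL1RN. In coculture none did, against 0.575% of the cells without IL1RN. With so few positive cells, absence of a pair is not shown.

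IL1R1 and IL1B were found together in 49 of the 52 IL1R1-positive HS-5 monoculture cells at full depth, or 94.2% (84.1% to 98.8%), against 66.7% of the other cells. The IL1R1-positive cells were deeper, with a median of 2535 UMIs against 966. After thinning to 1000 UMIs, IL1B was found in 10 of 14 IL1R1-positive cells, or 71.4% (41.9% to 91.6%), and in 67.4% of the rest, an interval that holds the latter share. In HS-5 coculture cells, 7 of 12 IL1R1-positive cells, or 58.3%, had IL1B at full depth against 58.4% of the others, and after thinning it was 6 of 7, or 85.7% (42.1% to 99.6%), against 62.8%. Among IL1RN-positive cells thinned in the same way, IL1B was found in 3 of 5 in monoculture, against 67.5% of the rest, and in 4 of 11 in coculture, or 36.4% (10.9% to 69.2%), against 63.3%. With so few cells these shares set no order.

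The ligand pair did meet the 20 positive cells set as a minimum for each gene. After thinning, 218 of 1802 HS-5 monoculture cells had both IL1A and IL1B, where the product of the separate shares gives 188, a ratio of 1.16 (1.02 to 1.31). In HS-5 coculture cells, 67 of 1000 had both against 56.1, a ratio of 1.20 (0.933 to 1.5), whose interval includes 1. Both intervals are those of the joint share, with the product of the separate shares taken as fixed. IL1B was present in 78.1% (72.8% to 82.8%) of IL1A-positive monoculture cells and in 65.5% (63.1% to 67.9%) of IL1A-negative ones. In coculture these shares were 75.3% (65.0% to 83.8%) and 61.8% (58.6% to 65.0%). The mean IL1A count was 1.89-fold (1.45 to 2.48) higher in IL1B-positive than in IL1B-negative monoculture cells and 1.97-fold (1.22 to 3.28) in coculture. IL1B with IL1RAP, IRAK1 or CASP1 gave ratios from 0.823 to 1.16 over both cultures, and each interval includes 1.

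IL1B-positive HS-5 cells also held more RNA of several IL-1 response genes. The comparison is within libraries, at 1000 UMIs per cell, with 1216 positive and 586 negative cells in monoculture and 630 and 370 in coculture. Median depth before thinning was 1733 and 1740 UMIs in monoculture and 1523 and 1542 in coculture. CXCL8, a neutrophil chemokine, was at 1.9 UMIs per positive cell and 0.981 per negative cell in monoculture, a ratio of 1.93 (1.76 to 2.12), and the ratio was 1.94 (1.70 to 2.21) in coculture. CSF3, which encodes the granulocyte growth factor G-CSF, gave 1.88 (1.68 to 2.11) and 2.06 (1.64 to 2.61). IL6, a growth factor for myeloma cells, gave 1.64 (1.49 to 1.81) and 1.41 (1.25 to 1.6).

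The response list as a whole differed less than these genes. Its 20 genes summed to 21.9 UMIs per IL1B-positive and 18.1 per IL1B-negative monoculture cell, a ratio of 1.21 (1.18 to 1.24), and the ratio was 1.21 (1.17 to 1.24) in coculture. MMP1 made up 14427 of the 26647 UMIs in the positive monoculture cells, and its own ratio was 1.07 (1.04 to 1.1). Without thinning, where positive cells are also deeper cells, the list ratio was 2.68 in monoculture and 1.85 in coculture. NFKBIA and NFKBIZ, IκB family genes that NF-κB induces, had ratios of 0.927 (0.747 to 1.15) and 0.812 (0.579 to 1.15) in monoculture. In coculture they had 1.14 (0.835 to 1.56) and 1.27 (0.77 to 2.16). SOD2, a mitochondrial antioxidant enzyme, had 1.08 (0.964 to 1.22) and 1.14 (1.02 to 1.27). The matrix list gave 1.12 (1.06 to 1.19) in monoculture and 0.884 (0.822 to 0.95) in coculture, and the mitosis list gave 1.06 (1.02 to 1.11) and 1.13 (1.06 to 1.20). The 4 IL-1 pathway lists together gave 1.07 (0.982 to 1.18) and 1.11 (0.989 to 1.25). Within them, IRAK3 was at 0.795 (0.443 to 1.46) in monoculture and 2.10 (1.14 to 4.11) in coculture. PYCARD was at 3.67 (1.27 to 14.5) in coculture and CAPN1 at 3.73 (1.32 to 14.6) in monoculture, each from 4 UMIs in the negative cells.

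**Figure D2:**
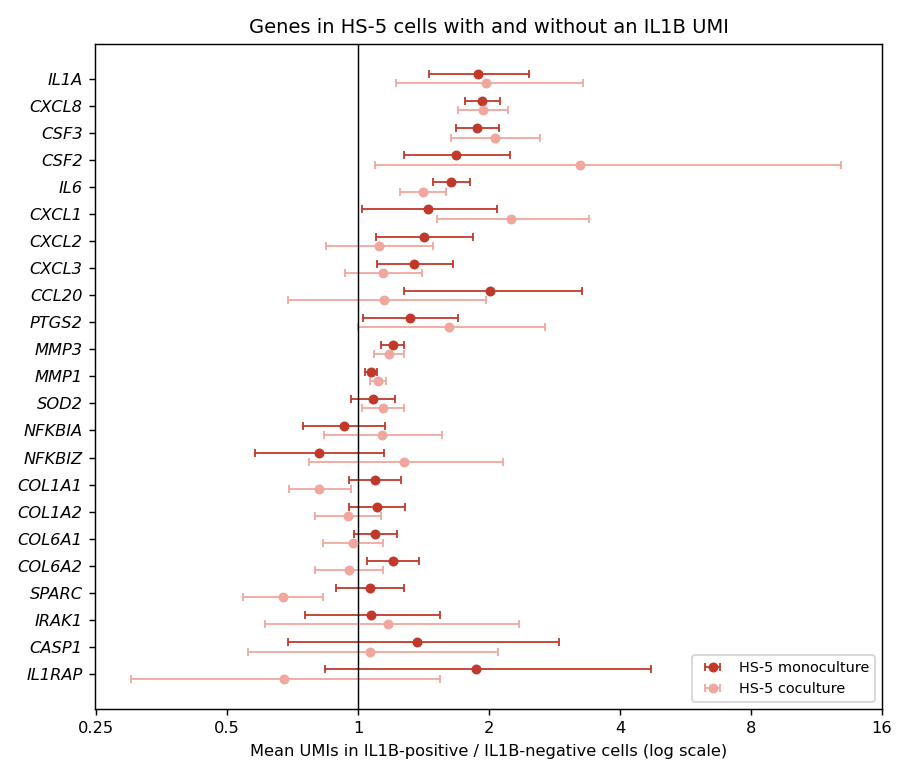
Mean UMIs in IL1B-positive over IL1B-negative HS-5 cells after thinning to 1000 UMIs (x axis, log scale), by gene, in monoculture (dark) and coculture (light), with points for the ratio and bars for exact 95% counting intervals. IL1A, CXCL8, CSF3, CSF2, IL6, CXCL1, MMP3 and MMP1 have intervals above 1 in both cultures, while NFKBIA, NFKBIZ, IRAK1, CASP1 and IL1RAP have intervals that include 1 in both. Among response genes not drawn, the monoculture and coculture ratios were 2.41 and 0.712 for CCL2, 1.29 and 0.553 for TNFAIP6, and 2.41 and 2.11 for LIF.

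Ranked over 3600 genes found in at least 5% of thinned HS-5 monoculture cells, those with the highest Pearson correlation with IL1B were CXCL8 (0.32), CSF3 (0.27), IL6 (0.26), IL1A (0.19) and CSF2 (0.12), over 1802 cells of 1 library. In the 1000 coculture cells the same genes had 0.28, 0.22, 0.23, 0.11 and 0.13. The cells share a library and a fixed depth, and these values are a description. For IL1R1 the leading genes were NOTCH2, DHX38, CDCA7L, NAGK and WWC2, at 0.12 to 0.09. All 5 were below 0 in coculture, and the monoculture values rest on 14 IL1R1-positive cells, so they are no finding.

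IRAK1 (chrX:154010500-154019980, minus strand), the kinase that is phosphorylated and degraded when the receptor is engaged, differed between cultures in opposite directions in the 2 lines. In MM.1S it was at 53.9 CPM (49.5 to 58.5) in monoculture and at 246 CPM (220.3 to 274.4) in coculture, a ratio of 4.57 (3.98 to 5.25). In HS-5 it was at 92.1 CPM (84.7 to 100.1) and at 66.1 CPM (56.4 to 77.1), a ratio of 0.718 (0.599 to 0.855). The order of the lines was thus opposite in the 2 cultures, with HS-5 1.71-fold (1.52 to 1.93) above MM.1S in monoculture and MM.1S above HS-5 in coculture.

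The MM.1S ratio of IRAK1 was seen across many cells. The 327 UMIs in coculture came from 273 cells, with at most 4 in 1 cell. After thinning, 22.0% (17.9% to 26.5%) of 378 MM.1S coculture cells had an IRAK1 UMI against 5.37% (4.69% to 6.13%) of 3870 MM.1S monoculture cells. At full depth the shares were 16.6% and 12.3%. In HS-5 the thinned shares were 4.40% (3.21% to 5.86%) in coculture and 8.05% (6.83% to 9.40%) in monoculture. The MM.1S coculture cells were also the shallowest group, and their ratios were shifted upward as a whole. The median log2 ratio of all 7838 genes tested was 0.24, and that of 775 genes of similar transcript length was 0.31. With the latter subtracted, the log2 ratio of IRAK1, with the pseudocount of 1 CPM, was 1.86 in place of 2.17, and free HS-5 RNA would supply 1.15 of the 246 CPM. A share of 3.67% of the 7838 genes was at least 4-fold higher in MM.1S coculture cells.

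IRAK1 contains the microRNA gene MIR718 on the same strand. The 250 bases before its start are shown because it is the member whose level differed most between the MM.1S cultures among those past 10 CPM. The window is chrX:154019903-154020152, minus strand (RefSeq, GRCh38.p14), with a match to the NF-κB consensus in capitals, from 114 to 105 bases before the start. Here too the RefSeq start lies inside the GENCODE span, and part of the window overlaps it.
IRAK1: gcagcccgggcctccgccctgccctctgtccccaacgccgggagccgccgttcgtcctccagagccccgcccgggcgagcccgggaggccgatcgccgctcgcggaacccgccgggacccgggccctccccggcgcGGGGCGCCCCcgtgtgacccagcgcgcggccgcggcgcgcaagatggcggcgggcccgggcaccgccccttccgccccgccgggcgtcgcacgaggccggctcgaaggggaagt
The match reads on both strands, and none of the other motifs searched was found in this window.

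MYD88 (chr3:38138478-38143022, plus strand), the adaptor shared by IL-1 receptors and most Toll-like receptors, was at 12.8 CPM (10.8 to 15.2) in MM.1S monoculture and 22.6 CPM (15.2 to 32.3) in MM.1S coculture cells. The ratio was 1.76 (1.14 to 2.63). In HS-5 it was at 9.28 CPM in both cultures, from 57 and 23 UMIs, with a ratio of 0.999 (0.588 to 1.65). Over the processing alternatives its log2 value was between 0.51 and 0.90, so it passed 1.5-fold under some and not under others. Among the 3 members that averaged 10 CPM or more in MM.1S, IRAK1 and MYD88 were at least 1.5-fold higher in coculture, where 34.3% of all 7838 genes were higher and 14.4% lower. In HS-5, none of the 5 members tested passed 1.5-fold, against 8.41% of 8816 genes higher and 10.8% lower.

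CASP1 (chr11:105025443-105035250, minus strand) was at 35.1 CPM (31.6 to 38.9) in MM.1S and 32.6 CPM (28.2 to 37.4) in HS-5 monoculture cells, and the HS-5 over MM.1S ratio of 0.928 (0.777 to 1.11) includes 1 in its interval. In coculture it was at 43.7 CPM (33.2 to 56.5) in MM.1S and 45.2 CPM (37.2 to 54.3) in HS-5. The ratio was 1.25 (0.927 to 1.65) in MM.1S and 1.39 (1.09 to 1.76) in HS-5. CARD16, which arose as a copy of the first part of CASP1 and so may share reads with it, was at 16.3 CPM in HS-5 monoculture and 39.1 CPM in HS-5 coculture, a ratio of 2.40 (1.80 to 3.21).

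The rest of the pathway was taken from 4 lists with 46 genes. Of the 19 that averaged 10 CPM or more in MM.1S, 9 were at least 1.5-fold higher in coculture and 1 (SIGIRR) was lower, against 34.3% and 14.4% of all genes. Their median log2 ratio was 0.56, against 0.24 over all genes. In HS-5, 3 of 19 were higher and none was lower, against 8.41% and 10.8% of all genes, with a median of -0.04 that equals the -0.04 of all genes.

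Of the 10 signalling genes on these lists that averaged 10 CPM or more in MM.1S, 5 were at least 1.5-fold higher in coculture, against 34.3% of all genes. The other 5 passed 1.5-fold in neither direction. The shift with transcript length was not subtracted for these genes. The adaptor genes TAB2 and TAB3, whose products carry the TAK1 kinase to the receptor complex, were at 5.65 and 3.93 CPM in MM.1S monoculture and at 19.6 and 16.6 CPM in coculture. Their ratios were 3.46 (2.09 to 5.58) and 4.22 (2.39 to 7.25). CHUK and IKBKB, the catalytic subunits of the IκB kinase, had ratios of 2.69 (1.79 to 3.97) and 2.34 (1.48 to 3.6). UBE2N, a ubiquitin-conjugating enzyme of the same step, had 0.730 (0.607 to 0.871) in MM.1S and 1.51 (1.31 to 1.74) in HS-5.

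Of the kinases beside IRAK1, IRAK2 and IRAK3 were higher in HS-5 and IRAK4 in MM.1S. IRAK2 was at 32.9 CPM in HS-5 monoculture cells and at 0.192 CPM, 2 UMIs, in MM.1S monoculture cells, a ratio of 172 (46.9 to 1426). IRAK3, an inactive family member that restrains the pathway, was at 37.0 CPM in HS-5 monoculture, 53.6 CPM in HS-5 coculture and 1.92 CPM in MM.1S monoculture. IRAK4, the kinase that acts on IRAK1, was at 13.4 CPM (11.3 to 15.8) in MM.1S and 6.19 CPM (4.38 to 8.49) in HS-5 monoculture, an HS-5 over MM.1S ratio of 0.461 (0.313 to 0.664). The HS-5 ratio of coculture over monoculture for IRAK3 was 1.45 (1.16 to 1.81). IRAK3 was found in 2.83% (2.11% to 3.70%) and 6.30% (4.87% to 7.99%) of the thinned HS-5 cells of monoculture and coculture. At full depth, over all HS-5 cells, the shares were closer, at 5.31% and 5.99%.

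Inflammasome genes were split as well. AIM2, a sensor of cytosolic DNA, was at 15.0 CPM in MM.1S monoculture and 44.4 CPM in coculture, a ratio of 2.95 (2.15 to 4.01). CASP4, a caspase that senses bacterial lipopolysaccharide, was at 42.7 and 97.9 CPM in MM.1S, a ratio of 2.29 (1.87 to 2.79), and at 135 and 99.2 CPM in HS-5, a ratio of 0.733 (0.633 to 0.846). PYCARD, the adaptor that links sensors to CASP1, was at 65.2 and 50.5 CPM in MM.1S, a ratio of 0.774 (0.593 to 0.996), and at 10.9 and 22.6 CPM in HS-5, a ratio of 2.07 (1.43 to 3.0). NLRP3 had at most 6 UMIs in any group. S100A13, which takes part in the export of IL-1α, was at 287 CPM in HS-5 monoculture and 1.25 CPM in MM.1S monoculture, and its HS-5 coculture level was 226 CPM.

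Since IL-1 ligands are best known from monocytes and macrophages, their markers were read in the same cells. Of 10 such markers, none reached 10 CPM in any group, and their summed level was between 8.95 and 13.1 CPM. The neutrophil list (6 of 7 markers found) summed to between 1.05 and 5.86 CPM, and the T and NK cell list (5 markers) to between 1.51 and 5.65 CPM.

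The 20 response genes were read per line too. In HS-5 coculture cells, 4 were at least 1.5-fold higher (CXCL1, CCL2, SOD2 and TNFAIP6) and 3 lower (PTGS2, CSF3 and CSF2), against 8.41% and 10.8% of all genes. CCL2, a monocyte chemokine, had a ratio of 4.07 (3.27 to 5.08) and CSF2, which encodes GM-CSF, one of 0.136 (0.104 to 0.175). Of 8 such genes averaging 10 CPM or more in MM.1S, 4 were higher in coculture (CXCL8, CCL2, MMP1 and MMP3), against 34.3% of all genes. Free HS-5 RNA would give 171 CPM of MMP1, a collagenase gene, where MM.1S coculture cells held 80.6 CPM, and 48.2 CPM of MMP3 where they held 24.1 CPM. For CXCL8 it would give 21.6 of 26.4 CPM, and for CCL2 1.54 of 104 CPM.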

How the data were processed

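UMI counts per gene and cell of 3 Drop-seq libraries were used. The authors deposited whole-number counts without normalization. The submitters' processing notes name Cell Ranger 3.0.2, UMI-tools 1.0.0, STAR 2.5.3a, featureCounts 1.6.4, SAMtools 1.9 and the build GRCh38, with no order of use. The choice of barcodes and the use of strand are not given in the sources used here. Drop-seq counts 3′ ends, and PCR errors in UMIs can add to counts.

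The minimum was 200 detected genes per cell. Line-specific genes were at least 50-fold higher in 1 monoculture and at 50 CPM or more there. An HS-5 share of their UMIs under 0.2 or over 0.8 assigned a coculture cell, and cells between were left out as doublets. No other doublet caller was run. Monocultures were not filtered for doublets. Counts were summed per line and scaled to CPM, with a pseudocount of 1 in log2 ratios. Thinning drew 1000 UMIs per cell without replacement. Intervals are exact Poisson (levels), Clopper-Pearson (shares) and conditional binomial (ratios), at 95%. Transcript lengths from GENCODE release 29 covered 97.3% of gene symbols. No test was run, for want of replicates. Named genes are the 10 members and the 5 genes most correlated with IL1B and with IL1R1. Genes of the pathway lists were to be named at 10 CPM or more or with the highest or lowest ratios. Only a part of the pathway genes that meet this rule is named. Left out are, among others, CAPN2, at 178 and 206 CPM in HS-5 monoculture and coculture, and NLRP1, at 9.97 and 20.3 CPM in MM.1S. Where a gene of low count is named beyond this rule (IL1R2, IL18R1, IL37 and NLRP3), it was chosen after its values were seen. The members and lists were chosen with earlier results of these data known. Ratios, thinning and the pair statistic were tested on simulated counts. Python 3.11.15, numpy 2.4.6, scipy 1.17.1 and pandas 2.3.3 were used.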

Additional observations from a re-analysis of the deposited data

Results flagged for a closer look

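Genes of the IL-1 pathway with at least 10 CPM whose coculture over monoculture ratio lay beyond counting error in both lines, with opposite direction, are given here. At most the 3 members and 19 other pathway genes that averaged 10 CPM or more in MM.1S could meet this rule. The share of all genes that meet it is not given, so the list has no background to be compared with. The difference between the lines was not tested, since each condition is 1 library. The log2 ratio, with a pseudocount of 1 CPM, of IRAK1 was 2.17 in MM.1S and -0.47 in HS-5, and that of CASP4 was 1.18 in MM.1S and -0.44 in HS-5. GSDMD, the pore-forming protein of pyroptosis, had 0.56 and -0.33. PYCARD had -0.36 in MM.1S and 0.99 in HS-5, and UBE2N had -0.45 and 0.59. The median of all genes tested was 0.24 in MM.1S and -0.04 in HS-5. The part of the lower UMI count per MM.1S coculture cell in these values was not tested.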

How the results depend on the processing

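No paired analysis was possible because each condition is 1 library. For the same reason no replicate could be left out. The log2 ratio of IL1RN in HS-5 was above 0 under all 13 alternatives (0.53 to 1.58), and that of IL1R1 was below 0 (-1.22 to -0.28). With cells of 200 to 2500 genes and under 5% mitochondrial UMIs, the IL1R1 value was -1.22 and its interval excluded 0, whereas the main interval includes it. With a pseudocount of 10 CPM the IL1RN value was 0.53, since this pseudocount exceeds both levels. The log2 ratio of IRAK1 in MM.1S was between 1.86 and 2.42. It was 1.99 after median-of-ratios scaling, 1.86 after subtraction of the median of genes of similar length, and 2.42 with cells of 200 to 2500 genes and under 5% mitochondrial UMIs. The observed over expected share of HS-5 monoculture cells with IL1A and IL1B was 1.38 at 500 UMIs and 1.10 (0.963 to 1.25) at 2000 UMIs, and between 1.16 and 1.28 otherwise. In coculture it was between 1.06 and 1.38. This ratio cannot exceed the inverse of the larger of the 2 shares. The IL1B share of HS-5 monoculture cells was between 47.1% and 83.0% over these alternatives. Ratios at different depths are therefore not on the same scale, and a cause of their differences was not tested. With a limit of 5 CPM, 8 members passed in HS-5 coculture cells. Pathway genes counted as lower in MM.1S coculture numbered 2 with at least 500 genes per cell, with 200 to 2500 genes and under 5% mitochondrial UMIs (1 lower in HS-5), or with HS-5 shares of 0.1 to 0.9 left out. They numbered 0 with a 2-fold limit or a mean of at least 50 CPM, where 1 gene was higher in MM.1S and 1 in HS-5, since fewer genes enter. For IL1B in MM.1S coculture cells the free RNA estimate of 22.3 CPM exceeded the observed 11.3 CPM, so subtraction left 0 CPM. The log2 ratio was then -0.74 in place of 2.88. Its size is set by the pseudocount and it is no measured decrease. The log2 ratio of MYD88 in MM.1S was 0.51 with a pseudocount of 10 CPM and 0.58 after the length subtraction, under 1.5-fold in both. HS-5 over MM.1S log2 ratios lay between 4.13 and 8.47 for IL1A and between 7.19 and 10.97 for IL1B, the ends being pseudocounts of 10 and 0.1 CPM. Without thinning, ratios in IL1B-positive over IL1B-negative monoculture cells were 2.68 for the response list, 4.84 for CXCL8, 3.66 for IL6 and 3.12 for CSF3, and CSF3 in coculture was 3.26 at 2000 UMIs. Of the 771 other values under the alternatives, 641 lay within the main counting interval, which is that of the ratio without a pseudocount, so values with one can lie outside it for genes near 0 in MM.1S. At the depth of the MM.1S coculture cells, 3 counts are worth 2.26 CPM, so IL1A, IL1R1, IL1RN, IL33 and IL18 are not measured there.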

Other observations

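IL1A-positive HS-5 cells were read in the same way as IL1B-positive ones. Among 279 IL1A-positive and 1523 IL1A-negative thinned HS-5 monoculture cells, CCL20, a chemokine for lymphocytes and dendritic cells, had a ratio of 3.69 (2.52 to 5.35), PTGS2, the inducible cyclooxygenase, 2.42 (1.9 to 3.07), and CXCL2, a neutrophil chemokine, 1.89 (1.46 to 2.42). The mitosis list had a ratio of 0.840 (0.796 to 0.886). In the 89 IL1A-positive coculture cells, these ratios were 1.49 (0.649 to 3.01) for CCL20, 0.476 (0.127 to 1.26) for PTGS2, 2.30 (1.6 to 3.23) for CXCL2 and 0.984 (0.884 to 1.09) for the mitosis list. CXCL8 and IL6 were higher in IL1A-positive cells of both cultures, at 1.72 and 1.77 in monoculture and 1.85 and 1.87 in coculture.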
